A study of Mus musculus with 6 samples.

Results

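The insulin and insulin-like growth factor (IGF) receptors, their docking substrates and the IGF ligands were described in mouse Glu-tag cells, as 9 genes of the 54532 in the deposited count table. They were taken by gene name, as a list chosen with earlier results of these data known. They are the substrates Irs1, Irs2, Irs3 and Irs4, the receptors Insr, Igf1r and Igf2r, and the ligands Igf1 and Igf2. RNA was sequenced from 3 libraries of cells carrying a control hairpin, whose genotype is given as WT, and 3 libraries of cells with a stable hairpin against Irs2, whose genotype is given as IRS2 Knockdown. Below, shControl and shIRS2 name these groups, and each library keeps the number of its title. The series poses the question of which transcripts change when Irs2 is silenced in a model of small intestinal neuroendocrine tumours. Glu-tag is a mouse enteroendocrine line known for secreting proglucagon-derived peptides, and no other treatment, time point or allele is labelled. Neither the hairpin sequences nor whether a line is a clone or a pool is stated in the labels. The design text calls the libraries biological triplicates without saying what separates them, so some of the spread behind each p-value may be technical.

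The labelled cell type did not match its defining markers. Of 17 enteroendocrine markers, 6 had 0 counts in all 6 libraries: Gcg, which encodes proglucagon, Chga, Pcsk1, Neurod1, Pyy and Nts. Only Pax6 and Nkx2-2 had a mean of at least 1 CPM (counts scaled to a library total of 1000000), and the summed level of the 17 was 26.2 to 31.8 CPM in shControl and 24.5 to 28.3 CPM in shIRS2. Of 8 fibroblast markers, 5 had a mean of at least 1 CPM, with a summed level of 629 to 967 CPM in shControl and 850 to 989 CPM in shIRS2, most of it from the collagen gene Col3a1, with a mean of 735 CPM. Of the other fibroblast markers, Pdgfra averaged 57.6 CPM, Pdgfrb 42.9, Col1a2 3.68 and Lum 2.62. Thy1 had 0 counts, Col1a1 20 and Dcn 25 in all. The part of the cells' identity in the results below was not tested. Library totals ran from 14991019 to 19790073 counts. In bulk RNA, fewer cells of a kind and less RNA per cell cannot be told apart.

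Insulin and the IGFs act through receptor tyrosine kinases. The insulin receptor (Insr) and the IGF1 receptor (Igf1r) phosphorylate the docking proteins IRS1 and IRS2, which recruit phosphoinositide 3-kinase (PI3K) and the adaptor GRB2 and so activate AKT and MAP kinase signalling. Igf2r has no kinase: it is the cation-independent mannose-6-phosphate receptor, which carries lysosomal enzymes and takes up IGF2 for degradation. Irs2 is known as the substrate whose transcription is most closely tied to nutrients, being raised by FoxO factors, CREB and TFE3 and lowered by SREBP1 in liver.

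The sequences before the start sites of 3 substrates share a pair of motifs, and they are shown because Irs2, the gene the hairpin targets, is one of them. The windows were searched on both strands for CACGTG, an E-box of the kind bound by TFE3 and SREBP proteins, and for TGTTTTG, a core of insulin response elements bound by FoxO factors. In each 60-base window, taken from RefSeq on GRCm38.p6 and read on the minus strand toward the gene, capitals mark matches to these 2 motifs, which overlap in Irs1. The windows lie at chr8:11008934-11008993 for Irs2, chr1:82291515-82291574 for Irs1, chrX:141725332-141725391 for Irs4 and chr17:12769715-12769774 for Igf2r.
Irs2: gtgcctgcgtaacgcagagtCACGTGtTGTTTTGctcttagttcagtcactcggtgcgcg
Irs4: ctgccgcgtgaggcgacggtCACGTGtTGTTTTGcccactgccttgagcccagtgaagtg
Irs1: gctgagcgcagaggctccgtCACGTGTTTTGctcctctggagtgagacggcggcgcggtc
Igf2r: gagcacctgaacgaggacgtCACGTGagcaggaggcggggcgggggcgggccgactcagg
The E-box began 44 bases before the RefSeq start of Irs2, 115 before that of Irs1 and 154 before that of Irs4. These RefSeq starts are not those of the counted genes. For Irs2, the base before the RefSeq start is 11008930, while the counted gene reaches only 11008458. For Irs4, the base before it is 141725218, inside the counted gene, which reaches 141725263. Igf2r had 2 matches, which began 48 and 7 bases before its start, and no TGTTTTG.

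In the 250 bases before the start, CACGTG was found in 6.02% of 32851 mouse promoter windows and TGTTTTG in 5.56%. Both motifs, overlapping or at most 10 bases apart, were found in 14 windows, which is 0.0426%, and Irs1, Irs2 and Irs4 were 3 of these. The whole stretch from the E-box to the end of the second motif, as printed for Irs2, was found in 2 windows, those of Irs2 and Irs4. This longer match and the spacing were examined after the sequences had been seen. The cyclic AMP response element TGACGTCA, in 1.55% of windows, and the FoxO motif GTAAACA, in 3.17%, had 0 matches in the members' windows. Of the 9 genes, 8 had an entry in the promoter table, and Insr had none. A match describes these letters and does not show that a factor binds there.

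Irs2 is the gene the hairpin is directed against, and the libraries labelled shIRS2 held no less of its RNA than the controls. The shControl libraries numbered 1 to 3 held 31.6, 22.7 and 34.3 CPM, from 473, 450 and 608 counts. The shIRS2 libraries held 31.4, 28.6 and 38.7 CPM, from 533, 470 and 606 counts. The lowest library was a control and the highest was labelled shIRS2, and the groups overlapped. The log2 fold change was 0.17 (SE 0.16), with a 95% interval of -0.20 to 0.54 and an edgeR adjusted p of 1.00. On the TMM scale of the fit, the log2 ratio of shIRS2 to shControl was 0.02, 0.34 and 0.18 in the pairs numbered 1, 2 and 3. In plain CPM, pair 1 ran slightly the other way. Since Irs2 goes against the label, shIRS2 means the libraries labelled so in every direction given here, and no direction is tied to a loss of Irs2. In mm10, Irs2 occupies positions 10984681 to 11008458 of chromosome 8, minus strand, with 2 exons in its longest coding transcript, and exon 1 holds 99.9% of the coding sequence.

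Irs1, the other broadly expressed substrate, was present at a similar level per length. The shControl libraries held 37.9, 40.4 and 45.2 CPM and the shIRS2 libraries 44.3, 44.4 and 42.7 CPM. The spread was wider in shControl, at 41.2 ± 3.73 CPM (SD, n = 3), than in shIRS2, at 43.8 ± 0.956 CPM (SD, n = 3), and the highest control lay above all shIRS2 libraries. The log2 fold change was 0.10 (SE 0.10), with an edgeR adjusted p of 1.00. Irs1 occupies 82233101 to 82291416 of chromosome 1, minus strand, and its whole coding sequence is in exon 1. The predicted gene Gm9747, on the opposite strand, overlaps it and had 0 counts. Of the 31-base words in Irs1 transcripts, 30.7% also occur in transcripts of another gene, nearly all in Gm9747. The labels do not give the strand setting of the counting, and a loss of Irs1 reads in that stretch was not tested.

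The other 2 substrates were at or near 0. Irs3, a rodent substrate best known from fat cells, had 1, 0 and 1 counts in shControl and 2, 0 and 2 in shIRS2. These 6 counts give a level of 0.0253 CPM per kilobase over the 6 libraries pooled, with an exact Poisson 95% interval of 0.00927 to 0.0550. Irs4, a substrate with narrow tissue expression, had 0 counts in all 6 libraries, which allows up to 0.00469 in the same unit, on a limit of 3 counts over the pooled libraries. Irs4 was thus at least 688-fold lower per length than Igf1r, the lowest of the well-expressed members by the gene lengths of the count table. Irs2 and Irs4, whose promoter windows hold the same stretch, had very different levels. Whether the stretch bears on either level was not tested. Irs3 was 128-fold lower per length than Igf1r, with an interval of 58.7 to 348. These intervals and limits cover counting error only.

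Both signalling receptors were expressed in every library, with little spread. For Insr the shControl libraries held 54.4, 55.9 and 54.8 CPM and the shIRS2 libraries 54.0, 48.0 and 54.2 CPM. One shIRS2 library, numbered 2, stood below the other 5, which lay between 54.0 and 55.9 CPM. The log2 fold change was -0.07 (SE 0.09), with an edgeR adjusted p of 1.00. For Igf1r the shControl libraries held 50.9, 54.7 and 52.6 CPM and the shIRS2 libraries 52.9, 59.7 and 54.2 CPM. Its highest value was in that same shIRS2 library, and the groups overlapped. The log2 fold change was 0.09 (SE 0.10), with an edgeR adjusted p of 1.00. Insr spans 3122061 to 3279617 on chromosome 8 and Igf1r 67952827 to 68233668 on chromosome 7, and the longest coding transcript of each has 21 exons.

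Igf2r was the most abundant member by far. The shControl libraries held 449, 407 and 499 CPM and the shIRS2 libraries 520, 423 and 488 CPM. The lowest library of each group was the one numbered 2, and the groups overlapped. The log2 fold change was 0.09 (SE 0.10), with an edgeR adjusted p of 1.00. Igf2r occupies 12682406 to 12769664 of chromosome 17, minus strand, and has 48 exons. Airn, the antisense RNA that silences the paternal Igf2r copy in many mouse tissues, starts inside the gene. It had 126, 168 and 161 counts in shControl and 170, 180 and 112 in shIRS2, a log2 fold change of 0.13 (SE 0.18) with an edgeR adjusted p of 1.00. Counts of such an antisense pair are uncertain where the counting does not use strand.

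Neither IGF ligand had more than 1 count. Igf2 had 0 counts in all 6 libraries, a limit of 0.00516 CPM per kilobase, at least 625-fold below Igf1r. Igf1 had 1 count in 1 shControl library and 0 in the other 5. Per length it was 3247-fold below Igf1r, with an interval of 583 to 128252. Igf2 shares 63.3% of its 31-base words with other genes, mostly with Gm49394, a gene on the same strand that spans it. Reads counted to neither because of the overlap cannot be told from absent RNA there, but 2112 words belong to Igf2 alone, and Gm49394 also had 0 counts.

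Per length, Igf2r stood apart from the other 4 expressed members, in the authors' deposited FPKM (CPM per kilobase of gene length). Igf2r had 49.7 ± 4.53 FPKM (SD over all 6 libraries), with a range of 44.0 to 55.5. Irs2 followed at 4.92 ± 0.821 FPKM, Irs1 at 4.63 ± 0.335, Insr at 3.88 ± 0.184 and Igf1r at 3.22 ± 0.219 (SD, n = 6 each). Igf2r was 10.1 times Irs2, and their ranges did not overlap. Irs2 and Irs1 did not differ beyond their spread: Irs2 was the higher in 4 of 6 libraries. By the listed gene lengths, Irs1 was above Insr in 6 of 6 libraries and Insr above Igf1r in 5 of 6. The means differed by 1.19 and 1.21 times, though the ranges of each pair overlapped. The listed gene length counts every annotated exon once, so a gene with unused exons, such as a long alternative 3' end, is set too low. It is 13746 bases for Insr and 16791 for Igf1r, while their longest coding transcripts have 9355 and 11409 bases. For Irs1 both lengths are 9144. The order of Irs1, Insr and Igf1r thus depends on the length used.

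**Figure D1:**
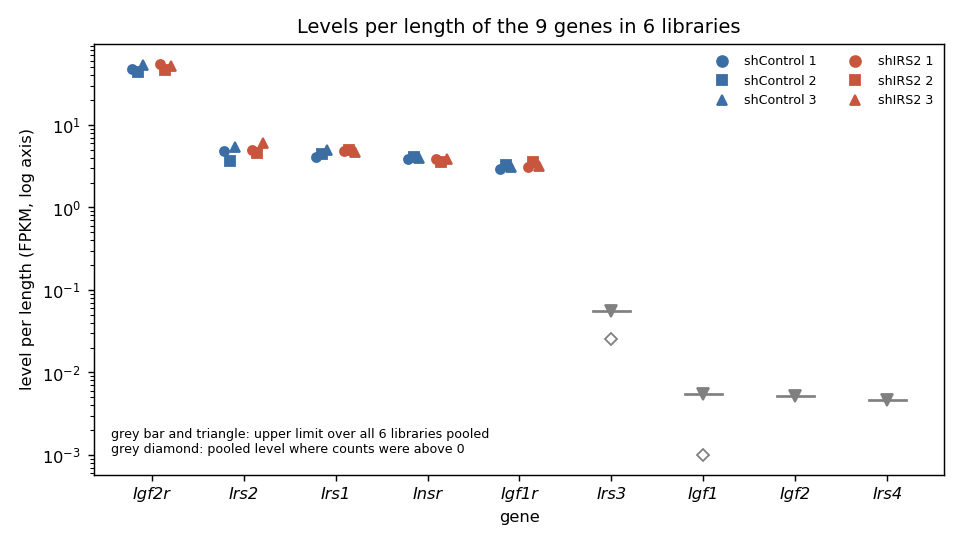
Level per length on a log axis for the 9 genes. Coloured points are the FPKM of single libraries. For the 4 genes near 0, grey bars with triangles are upper limits over the 6 libraries pooled (exact Poisson 95% for Irs3 and Igf1, 3 counts for Igf2 and Irs4) and open diamonds are pooled levels. Igf2r sits near 49.7 FPKM, 4 genes between 2.96 and 6.09, and the other 4 below 0.0550.

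The hairpin comparison was made for the 5 members with enough counts to be tested. None passed an adjusted p of 0.05 in edgeR, and none had an unadjusted p under 0.05. Over all 13472 genes tested, edgeR called 0%, with 262 genes (1.94%) at an unadjusted p under 0.05, while DESeq2 called 2 genes and limma on log2(FPKM + 1) called 0. The groups overlapped in all 5 members, against 6.35% of all genes tested in which they did not (3.26% higher and 3.09% lower). The 95% intervals of this fit, which leaves out the number in the title, bound what these libraries could hide. As percent change from shControl they ran from -12.8 to 45.2 for Irs2 and from -8.80 to 25.9 for Irs1. For the receptors they ran from -17.3 to 9.94 for Insr, -8.67 to 23.7 for Igf1r and -8.95 to 24.8 for Igf2r. In the fit that compares libraries within each number, called the replicate block below, the log2 fold changes were 0.18 (SE 0.09) for Irs2 and between -0.07 and 0.10 for the other 4. For Irs2 the 95% interval with the block was narrower, at -0.01 to 0.37 in log2, with an unadjusted edgeR p of 0.065. None of the 5 passed in that fit, in which edgeR called 1 of 13472 genes, or 0.00742%, and 9.16% had an unadjusted p under 0.05.

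**Figure D2:**
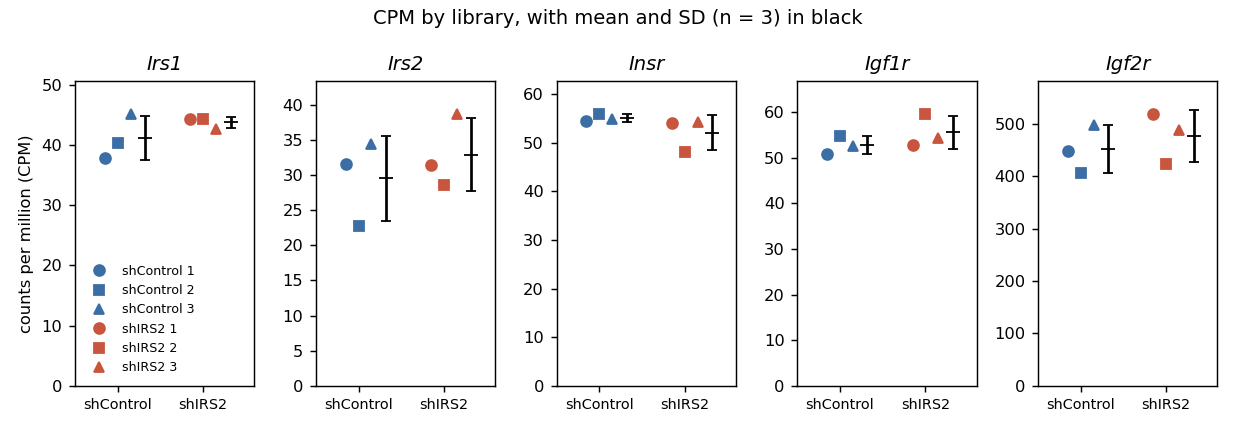
CPM of the 5 tested genes in each library, 1 panel per gene with its own axis from 0. Symbols give the number in the title and black bars the mean and SD of 3 libraries. In every panel the 2 groups overlap, and the square of shControl is the lowest point for Irs2, at 22.7 CPM.

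**Figure D3:**
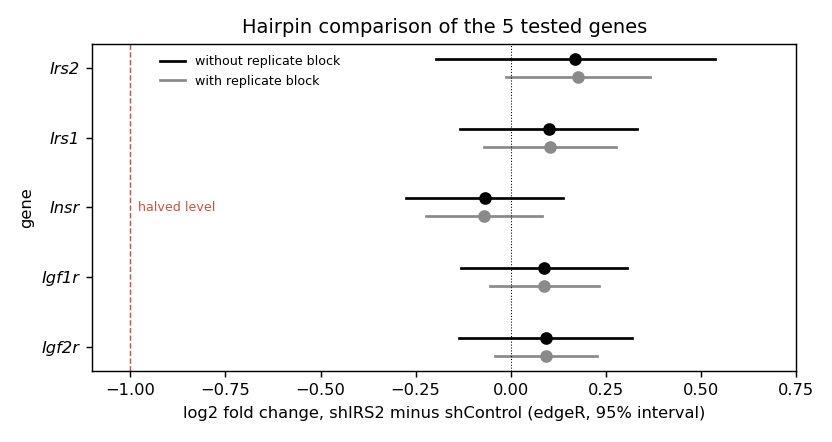
Log2 fold change of shIRS2 against shControl with its 95% interval from edgeR, without (black) and with (grey) the replicate block. All 10 intervals include 0 and all lie far above the dashed line at -1, where a level would be halved.

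Ratios taken within a library do not depend on how libraries are scaled to each other. The log2 ratio of Irs2 to Irs1, per length, was 0.27, -0.30 and 0.13 in shControl and 0.04, -0.10 and 0.39 in shIRS2. The ratio was below 0 in both libraries numbered 2 and above 0 in the other 4. The group means of 0.03 ± 0.30 and 0.11 ± 0.25 (SD, n = 3 each) differed by less than that spread, with an exact permutation p of 0.8 and an adjusted p of 1. The log2 ratio of Insr to Igf1r was 0.39, 0.32 and 0.35 in shControl and 0.32, -0.03 and 0.29 in shIRS2. Its mean difference was -0.16, of which the shIRS2 library numbered 2 made most: without that library it was -0.05. The exact permutation p was 0.2, and 0.6 adjusted over the 3 ratios. The log2 ratio of Igf2r to Igf1r averaged 3.94 ± 0.18 in shControl and 3.95 ± 0.24 in shIRS2 (SD, n = 3 each), with an exact permutation p of 1. With 3 libraries against 3, the two-sided exact test cannot give a p below 0.1.

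More genes were called by the number in the title than by hairpin. An edgeR F-test of the number, with the hairpin as a covariate, called 2638 of 13472 genes, which is 19.6%, and 33.3% had an unadjusted p under 0.05. Of the 5 members tested, Irs2 alone passed, which is near that background share. What the number marks is not labelled. Irs2 averaged 31.5 CPM in the libraries numbered 1, 25.7 in those numbered 2 and 36.5 in those numbered 3. Both libraries numbered 2 lay below the other 4. The log2 difference was -0.27 (SE 0.11) for number 2 against 1 and 0.49 (SE 0.11) for number 3 against 2, with an edgeR adjusted p of 0.0159. Without the shControl library numbered 2 this became 0.324, which ends the call, and DESeq2 gave 0.0531.

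The other members followed the number less clearly. Igf2r averaged 485, 415 and 494 CPM in the libraries numbered 1, 2 and 3, and again both numbered 2 were the lowest. Its adjusted p in edgeR was 0.0928, and 0.0427 when libraries were scaled by their totals. Leaving out the shControl library numbered 1, or the shIRS2 library numbered 1 or 3, gave 0.00635, 0.0222 and 0.0223. Leaving out the shControl library numbered 2 or 3, or the shIRS2 library numbered 2, gave 0.547, 0.166 and 0.638. Igf1r ran the other way, at 51.9, 57.2 and 53.4 CPM, with an adjusted p of 0.274. Irs1 had 41.1, 42.4 and 43.9 CPM (adjusted p of 0.696) and Insr 54.2, 52.0 and 54.5 CPM (0.929). Whether these members differ from each other in their response to the number was not tested. Over the 6 libraries, the range of log2 CPM was 0.74 for Irs2, wider than in 92.8% of the 9040 genes that averaged 10 CPM or more, and 0.34 for Igf2r, 0.28 for Irs1 and for Igf1r, and 0.21 for Insr.

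**Figure D4:**
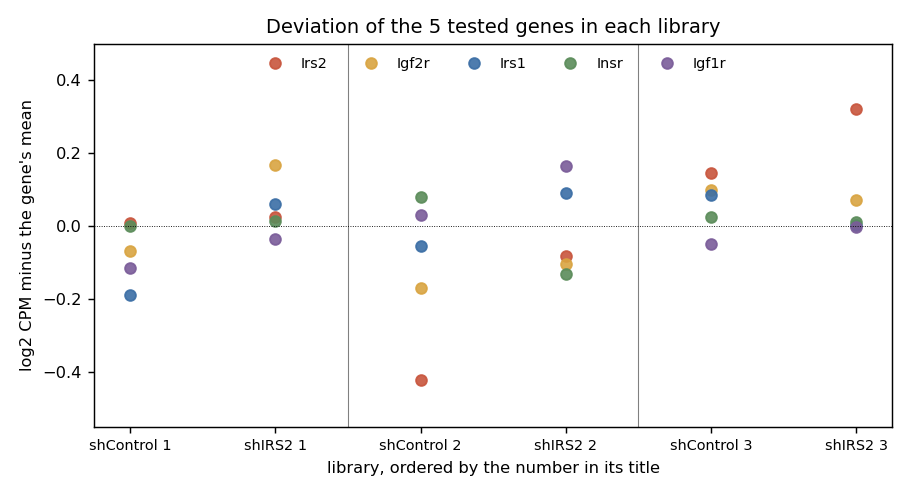
Log2 CPM of each tested gene minus its own mean, with libraries ordered by the number in their titles. Irs2 lies at -0.42 and -0.08 in the libraries numbered 2 and at 0.15 and 0.32 in those numbered 3, while Insr stays between -0.13 and 0.08.

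Known regulators of Irs2 and Insr transcription formed 1 of the 7 lists of neighbouring pathway genes that were examined. Of 18 genes, 13 were tested, with 8 higher and 5 lower in shIRS2, a median log2 fold change of 0.03 and 0 called, where all genes tested had a median of 0.00. By number, 6 of the 13 were called, or 46.2% against 19.6% of all genes tested. In all 6 the libraries numbered 2 were lowest, a pattern called in 9.68% of all genes tested (8.96% had number 2 highest). The lists were chosen with earlier results of these data known, so these shares are a description and not a test. Foxo3 and Foxo4, FoxO factors that AKT keeps out of the nucleus, had log2 differences of -0.37 and -0.46 for number 2 against 1. Srebf1, which encodes SREBP1, had -0.45, with 134, 83.7 and 131 CPM in shControl and 121, 99.6 and 132 CPM in shIRS2. Cebpb, a stress and hormone responsive factor, had -0.47. The adjusted p-values in edgeR were 0.0119, 0.00595, 0.00305 and 0.00210 in that order. The other 2 were Srebf2 and Tfe3, named after their values were seen, at edgeR adjusted p-values of 0.0193 and 0.0355. For Srebf2, numbers 2 and 3 were alike, with a log2 difference of 0.02 (SE 0.07) for number 3 against 2. Foxo1, likewise named afterwards, was at 4.89 CPM and was not called (0.986). Hnf4a, Foxo6 and Rfx6 had 0 counts.

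A list compiled as brakes on the receptors and substrates included a large difference by number. Whether each listed gene acts as a brake was not tested. Of the 21 genes in this list, 16 were tested, with 9 higher and 7 lower in shIRS2, a median log2 fold change of 0.02 and 0 called. Trib3, a stress-induced pseudokinase known to bind AKT, held 121, 22.4 and 134 CPM in shControl and 110, 21.5 and 102 CPM in shIRS2. Both libraries numbered 2 thus stood far below the other 4, with a log2 difference of -2.36 against number 1 and an edgeR adjusted p of 1.84e-08. Cul7, a ubiquitin ligase subunit that targets IRS1, was also lower in number 2 (adjusted p of 0.0399), and Cav1, which encodes caveolin 1, was higher (0.0357). These 3 of 16 were the genes called by number in the list, or 18.8% against 19.6% of all genes tested. Nedd4 and Socs7 were the list's genes whose hairpin groups did not overlap, 2 of 16 where 6.35% of all genes tested did not. Their log2 fold changes were 0.17 (SE 0.08) and -0.20 (SE 0.09), neither passing in edgeR with an adjusted p of 1.00. The receptor-binding adaptors Grb10 and Grb7 and the suppressor Socs2 had 4, 2 and 1 counts in all.

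Adaptors that bind the same receptors were mostly expressed, and none was called by hairpin. Of 29 genes, 24 were tested, with 10 higher and 14 lower, a median log2 fold change of -0.03 and 0 called. Shc1, the adaptor that links the receptors to RAS, had the smallest hairpin p of the list, with a log2 fold change of 0.15 (SE 0.09). By number 4 of 24 were called, which is 16.7%, against 19.6% of all genes tested. Among them Gab2, Nck2 and Fyn were lowest in number 2, with edgeR adjusted p-values of 0.0106, 0.00853 and 0.0323.

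The 6 listed subunits of PI3K, whose complexes dock on phosphorylated IRS proteins, were all tested. Of these, 3 were higher and 3 lower in shIRS2, with a median log2 fold change of 0.03 and 0 called. Pik3r1, the main regulatory subunit, had 0.22 (SE 0.10). By number 4 of 6 were called, against 19.6% of all genes tested. This list, too, was chosen with earlier results of these data known. Pik3r2, the second regulatory subunit, was lowest in number 2, at 186 and 191 CPM against 225 to 281 in the other 4 libraries, and Pik3cd was also lowest there. Pik3cb, a catalytic subunit, was highest in number 2, at 58.3 and 57.0 CPM against 37.1 to 51.0. Pik3r3 held 10.6, 8.29 and 6.66 CPM in shControl and 10.2, 7.18 and 6.77 CPM in shIRS2, highest in number 1. Their edgeR adjusted p-values were 0.00168, 0.0209, 0.0108 and 0.0369.

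**Figure D5:**
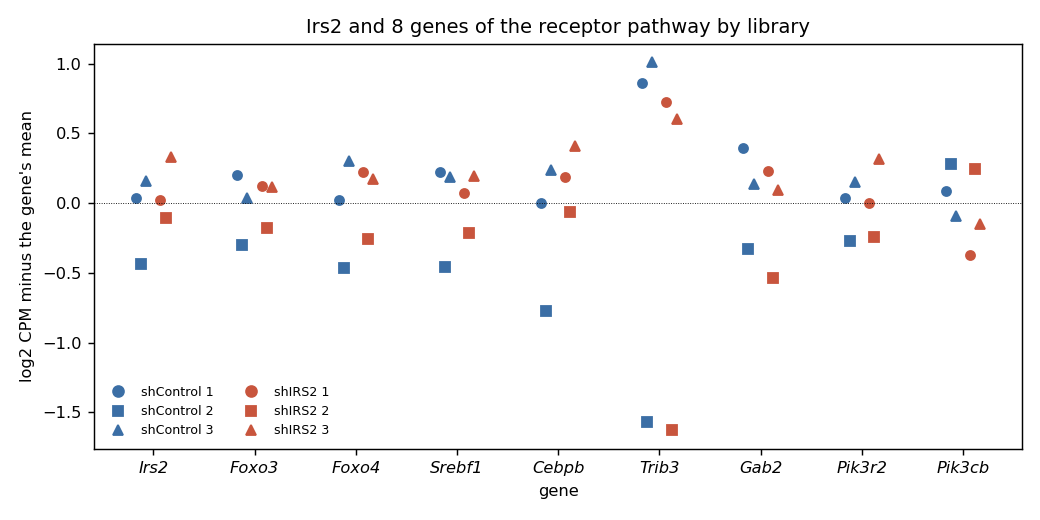
Log2 CPM minus each gene's mean in the 6 libraries, for Irs2 and 8 pathway genes called by number, picked from the named genes after their values were seen. Squares are the libraries numbered 2: they lie lowest for Irs2, Foxo3, Foxo4, Srebf1, Cebpb, Trib3, Gab2 and Pik3r2 and highest for Pik3cb.

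Kinases known to phosphorylate IRS proteins on serine had 13 of 15 genes tested, 7 higher and 6 lower, with a median log2 fold change of 0.00 and 0 called. By number 2 of 13 were called, or 15.4% against 19.6% of all genes tested, with Prkce lowest in number 2 (edgeR adjusted p of 0.0326) and Rock2 highest (0.0433). Mtor had a hairpin log2 fold change of -0.14 (SE 0.09).

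Ligands other than the IGFs were also at or near 0, apart from Insl6. Ins1, Ins2, Insl5 and Rln1 had 0 counts in all 6 libraries, Insl3 and Rln3 had means of 0.478 and 0.381 CPM, and Insl6 was the insulin relative with the highest level, at 2.22 CPM. The insulin receptor-related receptor Insrr had 8 counts in all. The prohormone convertase genes Pcsk1 and Pcsk2 had 0 and 6 counts. Furin, the protease that cleaves the insulin and IGF1 proreceptors, held 83.6 to 103 CPM in shControl and 83.2 to 105 CPM in shIRS2. In the same list, Cpe, Cpd and Pcsk6 averaged 215, 216 and 7.05 CPM. Of the 16 genes in this list 7 were tested, 5 higher and 2 lower, with a median log2 fold change of 0.02, and 0 were called by hairpin or by number. Around Igf2, the imprinted RNA H19 and the regulator Plagl1 had 0 counts. Igf2bp2, which encodes an IGF2 mRNA-binding protein, held 262 to 275 CPM in shControl and 234 to 274 CPM in shIRS2. Of the 8 genes in that list 5 were tested, with a median of -0.07 and 0 called by hairpin or by number.

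For each tested member, the 3 protein-coding genes closest in pattern were found by the root mean square difference of log2 CPM, centred on each gene's mean over the 6 libraries, among 8761 genes that averaged 10 CPM or more. They were Vsig10, Creb3l2 and Recql5 for Irs2, at differences of 0.04 each, where Irs2 itself spread by 0.23 about its mean. Creb3l2 encodes a transcription factor of the endoplasmic reticulum and Golgi. For Igf2r they were Chmp4b, Metap1d and Ids, at 0.02 each. Chmp4b encodes a subunit of the ESCRT machinery and Ids a lysosomal sulfatase. Irs1 was closest to Cox7c, Nptx1 and Sdha, Insr to Gins4, Zfp609 and Aktip, and Igf1r to Tmem123, Cdc42se2 and Socs6. These likenesses rest on 6 libraries and are given as a description.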

How the data were processed

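RNA of 6 libraries was analysed, 3 per hairpin group. The authors deposited raw counts per gene, whole numbers without normalization, and FPKM values of the same libraries, which scale each count by gene length and by a total 0.985 to 1.02 times the library's counts. The submitters' processing notes name mm10. Libraries were strand-specific, per the labels' protocols. The sources used here do not name the aligner or the counting tool. Columns beginning NC were read as sh-control and S as sh-IRS2, from the names alone.

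Counts were fitted on the whole table in R 4.3.3 with edgeR 4.0.16 (filterByExpr, TMM, robust quasi-likelihood, two-sided), which left 13472 genes, and p-values were adjusted by Benjamini-Hochberg over all of them at 0.05. CPM uses library totals, and centred log2 CPM uses TMM scaling and a prior count of 2. The edgeR fits were tested on simulated counts. The hairpin simulation held no difference by replicate number, unlike these data. DESeq2 1.42.0, limma 3.58.1, other scalings, no filter, a replicate block and leaving out each library were alternatives. Deviations from group means correlated by 0.167, 0.576 and 0.260 within the pairs numbered 1, 2 and 3, and the numbers were taken as pairing the libraries because all 3 exceed 0.1. Only number 2 stands apart: shControl 1 with shIRS2 3 gave 0.189 and shControl 3 with shIRS2 1 gave 0.199, both above pair 1. Genes outside the 9 were named by rule: overlapping genes, and up to 4 per list with the smallest p by hairpin or number, and the 3 most alike in pattern. Srebf2, Tfe3, Foxo1 and genes with low or 0 counts were named after their values were seen, and 1 adaptor gene is not reported here. The members and lists were chosen with earlier results of these data known.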

Additional observations from a re-analysis of the deposited data

How the results depend on the processing

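Of 75 alternative values of the members' hairpin log2 fold changes, 74 kept their direction, all 75 stayed short of the threshold, and the lowest adjusted p was 0.570. The exception in direction was Insr, at 6.67e-05 without both libraries numbered 2, an alternative chosen after seeing the data. Leaving out single libraries moved Irs2 between 0.02 and 0.29, Irs1 between 0.03 and 0.17, Insr between -0.10 and -0.02, Igf1r between 0.02 and 0.13 and Igf2r between 0.03 and 0.17. The genes called by hairpin numbered 6 without a filter, 2 with DESeq2, 1 with the replicate block (Gm44126) and 4 with DESeq2 and the replicate block, and 0 to 0 when single libraries were left out. None was a member. The replicate block changed no call of a member.

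The genes called by number were 1641 with DESeq2, 803 with limma on log2(FPKM + 1), and 798 to 3774 when single libraries were left out, the fewest without the shControl library numbered 2 and next 973 without the shIRS2 library numbered 2. Where a library is left out, its number has 1 library, which is assumed to vary like the others. For Irs2 by number the adjusted p was 0.0531 with DESeq2 and 0.0951 with limma, and 0.00284 to 0.324 over left-out libraries. For Igf2r it was 0.0427 with library totals and 0.00635 to 0.638 over left-out libraries. For the within-library log2 ratios, the values that follow are group differences, shIRS2 minus shControl. The difference for Irs2 to Irs1 changed sign without the shControl library numbered 2 (-0.093) and without the shIRS2 library numbered 3 (-0.068). Over left-out libraries it ranged from -0.093 to 0.19. The difference for Igf2r to Igf1r was near 0, at 0.01. It changed sign without the shControl library numbered 2 (-0.094) and the shIRS2 libraries numbered 1 (-0.095) and 3 (-0.031), over -0.095 to 0.14. The difference for Insr to Igf1r ranged from -0.22 to -0.05. The cause was not tested. The 4 genes near 0 had too few counts to be tested.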

Other observations

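Genes that overlap the members on the opposite strand were nearly silent except Airn. The transcript 9530052E02Rik, which overlaps the 5' end of Irs2, had 7 counts in all libraries, 0.223% of the Irs2 counts, and the pseudogene Vmn2r-ps88 inside Insr had 19. Gm15295 at Irs4, Gm16180 at Insr, Igf1os at Igf1 and Igf2os at Igf2 had 0 counts, as did Mir483, which lies on the same strand as Igf2. Airn held 917 counts, 1.95% of the Igf2r counts.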
